A study of Mus musculus with 36 samples.

Results

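Transforming growth factor beta (TGF-beta) is a secreted cytokine that restrains hepatocyte growth and drives matrix production by stellate cells. It is bound by the type II receptor Tgfbr2, which recruits and phosphorylates the type I receptor Tgfbr1, and the type I receptor then phosphorylates Smad2 and Smad3. These join Smad4, enter the nucleus and bind DNA with partner factors, while Smad7, Bambi and Ldlrad4 act against the signal at the receptor or the receptor-regulated Smads.

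The 10 genes described here are the ligand Tgfb1, the receptors Tgfbr1, Tgfbr2 and Tgfbr3, the signalling Smads Smad2, Smad3 and Smad4, and the inhibitors Smad7, Bambi and Ldlrad4. They were chosen by name with earlier results of these data known, and all 10 had a row among the 13862 genes of the RNA table, where all 10 passed the filter on low values that left 13838 genes to test. Chromatin accessibility was followed at the 155 DNase I hypersensitive sites (DHSs), of 98170 in all, whose nearest transcription start site (TSS) belonged to one of the 10 genes. Livers of 18 male mice were profiled by stranded RNA-seq and DNase-seq. C57BL/6 mice, named C57BL/6J by the study, were 9 to 11 weeks old at the start and came from Taconic. B6C3F1/Ctrl mice, the hybrids of a C57BL/6 mother and a C3H/He father, were 4 to 5 weeks old and came from Charles River. In each strain 5 mice drank 0.05% (wt/vol) phenobarbital (PB) for 91 d and 4 drank water without it (vehicle, Vh). The PB came from Hänseler AG for C57BL/6J and from Sigma-Aldrich for B6C3F1. Strain, age, supplier, PB source and study therefore cannot be told apart. Neither strain carried a transgene, and each library came from 1 mouse, named here by the last digit of its animal number.

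RNA libraries held 23.8 to 30.3 M recovered reads and DNase libraries 7.01 to 58.1 M reads in DHSs, the lowest being B6C3F1 vehicle mouse 3. DNase depth differed by group, with medians of 41.4 M in vehicle and 25.1 M in PB-treated C57BL/6J mice. In B6C3F1 the medians were 16.8 M under vehicle and 17.6 M under PB. PB exposure was visible in each treated liver, since Cyp2b10, the classic PB-induced cytochrome P450, averaged 8.73 ± 1.62 CPM (read counts scaled to library size; SD, n = 4) in vehicle and 1194 ± 229 (n = 5) in PB-treated C57BL/6J mice, and 11.7 ± 5.68 and 1519 ± 232 in B6C3F1 mice. Cyp2c55, another PB-induced P450, was 19.4-fold and 20.3-fold higher in the means. The whole-liver RNA also held the defining markers of hepatocytes, stellate cells, endothelial cells and Kupffer cells, each above 0 in every mouse, while Cftr and Sctr of the cholangiocyte list had no row. In whole tissue, fewer cells of a type and less RNA per cell cannot be told apart.

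The sequences below are the Tgfbr2 promoter, the Tgfbr2 DHS with the smallest p in B6C3F1 and the Tgfbr3 DHSs with the smallest p in each strain, shown because these genes had DHSs that leaned in opposite directions with PB. None of these DHSs was called with PB in the main fits, while the distal Tgfbr3 DHS was called between the strains. The sequences of the Ldlrad4 DHSs are not printed here. The promoter is the 250 bases before the start in the RefSeq promoter table of GRCm38.p6 (chr9:116175364-116175613, minus strand). The DHS windows are the central 300 bases read on the plus strand of the same build. The first lies in a Tgfbr2 intron (chr9:116111626-116111925) and the others lie in Tgfbr3 introns (chr5:107272534-107272833 and chr5:107184253-107184552). Capitals mark the Smad-binding letters CAGACA, the half-site AGGTCA or its variant GGGTCA, each on either strand. All are C57BL/6J reference letters, and C3H/He alleles were not read.
Tgfbr2 promoter: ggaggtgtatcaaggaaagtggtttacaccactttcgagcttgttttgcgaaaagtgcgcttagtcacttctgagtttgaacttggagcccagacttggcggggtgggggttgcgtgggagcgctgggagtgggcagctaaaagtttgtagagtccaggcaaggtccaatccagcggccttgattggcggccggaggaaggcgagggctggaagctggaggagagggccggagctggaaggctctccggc
Tgfbr2 intron DHS: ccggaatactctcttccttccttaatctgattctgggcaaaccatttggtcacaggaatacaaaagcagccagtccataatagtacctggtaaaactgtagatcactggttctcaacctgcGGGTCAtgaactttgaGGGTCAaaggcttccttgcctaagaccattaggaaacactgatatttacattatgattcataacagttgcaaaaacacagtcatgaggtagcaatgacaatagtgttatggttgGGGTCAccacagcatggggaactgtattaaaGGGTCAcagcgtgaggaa
Tgfbr3 intron DHS near the start: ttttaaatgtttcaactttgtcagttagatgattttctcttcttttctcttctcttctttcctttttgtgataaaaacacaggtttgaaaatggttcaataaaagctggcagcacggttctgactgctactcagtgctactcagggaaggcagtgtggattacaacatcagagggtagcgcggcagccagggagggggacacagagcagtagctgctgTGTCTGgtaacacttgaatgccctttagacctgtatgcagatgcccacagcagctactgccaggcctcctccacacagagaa
Tgfbr3 distal intron DHS: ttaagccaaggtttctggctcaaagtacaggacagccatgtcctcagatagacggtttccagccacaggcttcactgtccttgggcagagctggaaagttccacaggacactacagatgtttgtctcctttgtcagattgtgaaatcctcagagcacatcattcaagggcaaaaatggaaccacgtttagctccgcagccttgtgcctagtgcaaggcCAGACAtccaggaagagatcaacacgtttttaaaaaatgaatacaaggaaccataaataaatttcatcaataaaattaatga

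Each Tgfbr3 window held CAGACA once, against 23.5% of the central windows of 52670 DHSs of at least 300 bases. Neither Tgfbr2 sequence held CAGACA or AGGTCA, letters found in 17.1% and 14% of 32851 promoters and, for AGGTCA, in 28% of DHS windows. None of the 4 sequences held the palindrome GTCTAGAC or a direct repeat of AGNTCA with 4 bases between, each present in under 1% of promoters and of DHS windows. GGGTCA occurred 4 times in the Tgfbr2 intron window and 0 times in the others. This variant was added after the window had been read, and 18.5% of DHS windows hold it at least once. How many of them hold it 4 times was not counted. The Tgfbr2 window was 47% repeat-masked in the reference, a share reached by 4.15% of DHS windows (median 7.67%). Whether the GGGTCA matches lie in the masked bases was not recorded. Matches are described as letters only.

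Tgfbr2, the receptor that binds the ligand first, was the member with the clearest difference in RNA. It was higher in PB-treated livers of both strains and lower in B6C3F1 than in C57BL/6J livers under vehicle. Vehicle C57BL/6J mice 1, 2, 3 and 5 measured 31.5, 32.2, 36.7 and 33.9 CPM, and PB-treated mice 1 to 5 measured 43.1, 46.4, 47.6, 48.7 and 49.0 CPM. In B6C3F1 the vehicle mice measured 24.1, 22.2, 26.1 and 23.3 CPM and the PB-treated mice 39.0, 37.3, 45.4, 36.5 and 38.8 CPM. Within each strain no PB-treated mouse overlapped a vehicle mouse, and PB-treated B6C3F1 livers ranged from 36.5 to 45.4 CPM, against 31.5 to 36.7 CPM in vehicle C57BL/6J livers.

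A gene was called at an absolute log2 fold change of at least 0.58 (1.49-fold) and a false discovery rate (FDR) of at most 0.01 in limma's test on log2(CPM + 0.1) over all tested genes, and all log2 values given here are on that scale. In B6C3F1, Tgfbr2 rose 1.65-fold in the means, with a log2 fold change of 0.72 ± 0.07 (SE; limma adjusted p = 1.83e-07). In C57BL/6J it was 1.40-fold higher, with a log2 fold change of 0.48 ± 0.07 (limma adjusted p = 6.97e-05), which passed the FDR and stayed below the minimum size, so that it was not called. The difference between the strains' responses was 0.23 ± 0.09 on the log2 scale (95% interval 0.04 to 0.43) and did not pass over all genes (limma adjusted p = 0.536). Under vehicle, Tgfbr2 was at 0.713 of the C57BL/6J mean in B6C3F1 (log2 difference −0.49 ± 0.07, limma adjusted p = 4.50e-05) without overlap, as for 22.2% of all genes. Under PB the ratio was 0.840 (log2 difference −0.25 ± 0.06, limma adjusted p = 0.00449), with overlapping mice. Neither strain difference reached the minimum size.

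Of the 10 genes, 2 were called in the B6C3F1 PB comparison (Tgfbr2 and Ldlrad4, both higher), beside 2% of all genes in either direction and 1.55% in the upward direction, a count to be read with that choice in view. The same 2 had an unadjusted limma p under 0.05 (23.4% of all genes). None was called in C57BL/6J, beside 0.874% of all genes, where 3 of the 10 had an unadjusted limma p under 0.05 (12.4% of all genes) and edgeR called 0 as well. None was called between the strains under vehicle (background 3.63%) or PB (5.25%), where Tgfbr2 alone had an unadjusted p under 0.05 (33.1% and 39.9% of all genes), nor in the strain difference of the PB response (0%), where Tgfbr2 and Ldlrad4 did (7.9%). The edgeR test on recovered reads also gave 0 in each of these 3. Non-overlap of PB and vehicle mice was seen for 2 of the 10 in each strain, against 7.64% of all genes in C57BL/6J and 9.05% in B6C3F1. The median log2 fold change of the 10 was 0.02 in C57BL/6J and 0.04 in B6C3F1, against −0.01 over all genes in both.

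**Figure D1:**
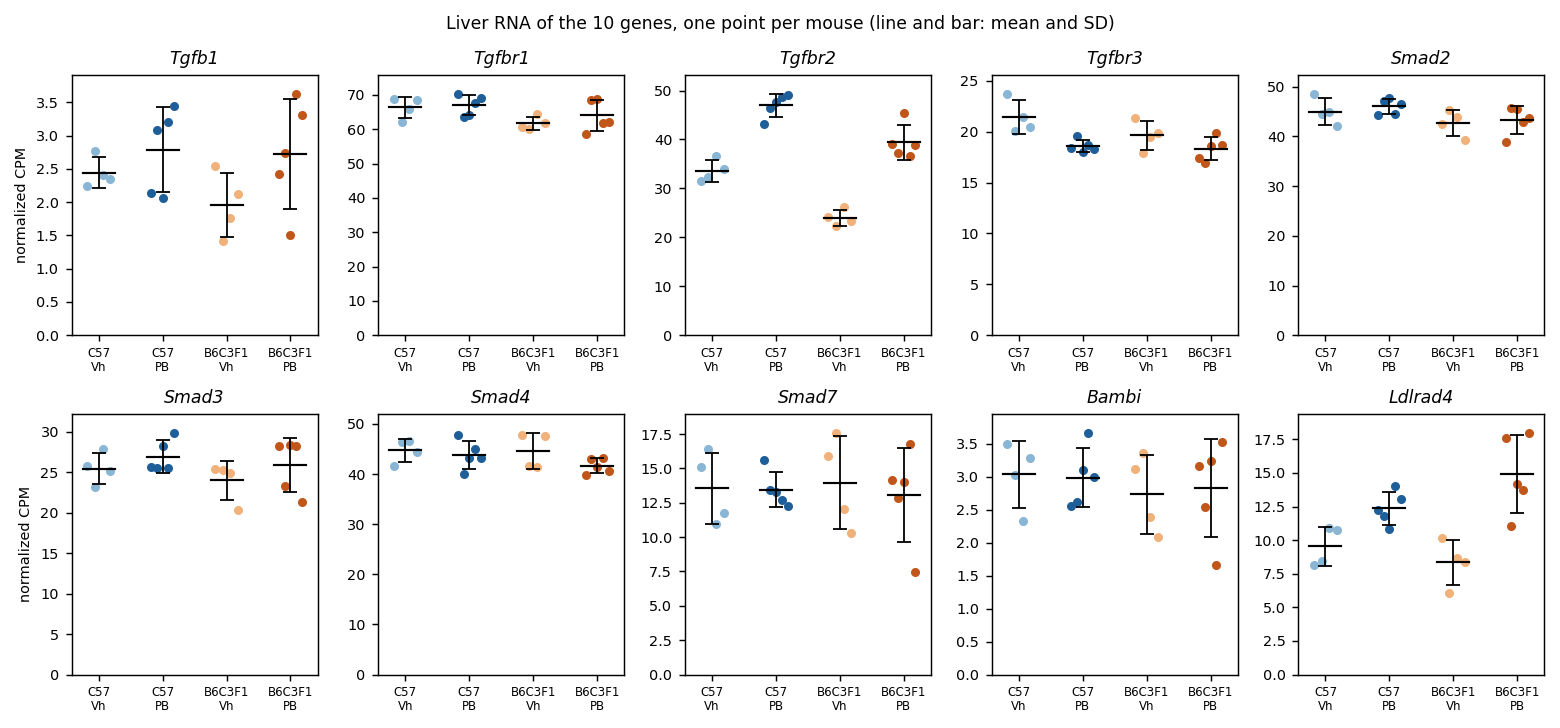
Normalized CPM (y axis, from 0) of each of the 10 genes in the 4 groups (x axis; Vh, vehicle), with 1 point per mouse and the mean and SD as line and bar. Tgfbr2 vehicle and PB mice do not overlap in either strain, whereas the points of Tgfbr1, Smad2, Smad3 and Smad4 overlap across all 4 groups.

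Tgfb1, the ligand, was among the lowest of the 10. Vehicle C57BL/6J mice measured 2.25, 2.77, 2.41 and 2.35 CPM and PB-treated mice 2.14, 3.09, 2.07, 3.20 and 3.45 CPM. In B6C3F1 the values were 2.54, 1.41, 1.76 and 2.12 CPM under vehicle and 2.42, 2.73, 1.51, 3.63 and 3.31 CPM under PB. The groups overlapped in both strains, and the log2 fold changes were 0.16 ± 0.22 in C57BL/6J (95% interval −0.30 to 0.61) and 0.43 ± 0.22 in B6C3F1 (−0.03 to 0.88; limma adjusted p = 0.252). With 42 to 105 reads per library, counting alone gave a coefficient of variation of 12.5% at the median library.

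Tgfbr1, the type I receptor kinase, showed the narrowest intervals. It averaged 66.4 ± 3.09 CPM in vehicle (n = 4) and 67.0 ± 2.97 CPM in PB-treated C57BL/6J livers (n = 5), and 61.8 ± 1.95 and 64.1 ± 4.52 CPM in B6C3F1. The PB log2 fold changes were 0.01 (95% interval −0.10 to 0.12) and 0.05 (−0.06 to 0.16).

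Tgfbr3, or betaglycan, a coreceptor that presents ligand to Tgfbr2, gave lower values under PB in C57BL/6J. Vehicle mice measured 23.7, 20.0, 21.5 and 20.5 CPM and PB-treated mice 18.4, 19.6, 18.03, 18.7 and 18.3 CPM, which did not overlap. The log2 fold change of −0.20 ± 0.07 did not pass over all genes (limma adjusted p = 0.144). In B6C3F1, 21.3, 17.9, 19.5 and 19.8 CPM under vehicle overlapped 17.4, 17.0, 18.6, 19.9 and 18.7 CPM under PB (log2 fold change −0.10 ± 0.07, limma adjusted p = 0.408).

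No signalling Smad passed the test in a PB comparison. Smad2, which is phosphorylated by the type I receptor, had PB log2 fold changes of 0.03 in C57BL/6J (95% interval −0.09 to 0.15) and 0.02 in B6C3F1 (−0.10 to 0.14). Smad3, the other receptor-regulated Smad of the pathway, had 0.08 (−0.10 to 0.27) and 0.11 (−0.08 to 0.29). Smad4, the common partner, had −0.03 (−0.16 to 0.09) and −0.09 (−0.22 to 0.03). All 6 intervals lay below the 0.58 that a call required, and those values are on the log2 scale.

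The inhibitors differed from one another. Smad7, which blocks and degrades the type I receptor, ranged from 7.49 to 17.6 CPM over the 18 mice, with log2 fold changes of 0.00 (95% interval −0.43 to 0.44) and −0.11 (−0.54 to 0.32). Bambi, a receptor-like protein without a kinase domain, ranged from 1.66 to 3.66 CPM, with log2 fold changes of −0.02 (−0.43 to 0.39) and 0.02 (−0.38 to 0.43). Its 48 to 100 reads per library gave a counting variation of 11.3% at the median.

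Ldlrad4, a membrane protein that keeps Smad2 and Smad3 from the type I receptor, was the second member called. Vehicle B6C3F1 mice measured 10.2, 6.08, 8.70 and 8.41 CPM and PB-treated mice 17.6, 11.1, 14.2, 13.7 and 17.96 CPM, without overlap. Ldlrad4 rose 1.79-fold in the means of that strain (log2 fold change 0.83 ± 0.15, limma adjusted p = 0.000884). In C57BL/6J the vehicle mice measured 8.17, 8.42, 10.9 and 10.7 CPM and the PB-treated mice 12.2, 11.8, 10.8, 14.0 and 13.0 CPM, and PB mouse 3 fell within the vehicle range (log2 fold change 0.38 ± 0.15, limma adjusted p = 0.253). The difference between the strains' responses was 0.46 ± 0.21 (95% interval 0.02 to 0.89, limma adjusted p = 0.619). With only the B6C3F1 mice in the fit the adjusted p of Ldlrad4 was 0.0104, just past the threshold.

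**Figure D2:**
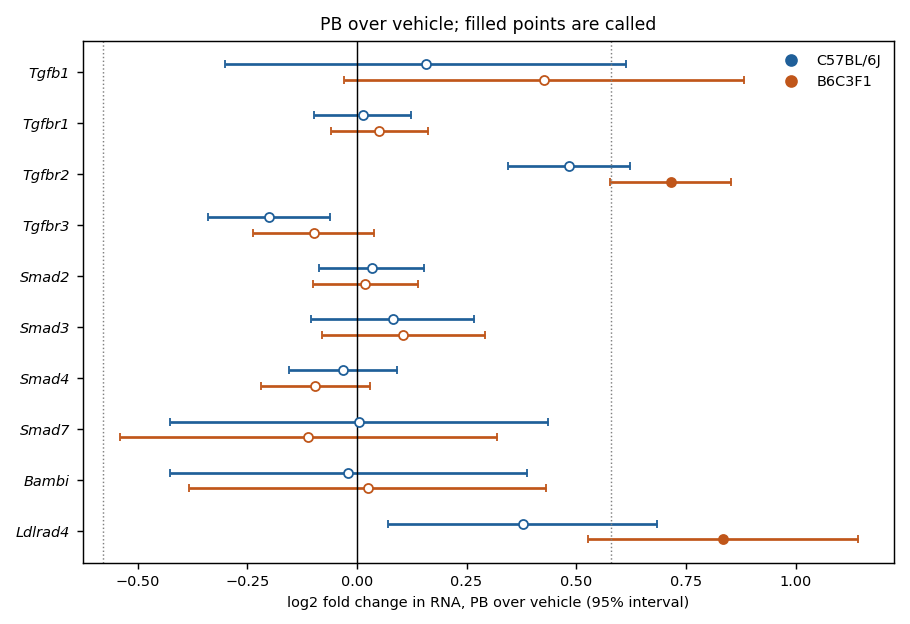
Log2 fold change of RNA, PB over vehicle (x axis), for each gene (y axis) in C57BL/6J and B6C3F1, with 95% intervals; filled points were called and dotted lines mark 0.58 in both directions. Tgfbr2 lies at 0.48 and 0.72 and Ldlrad4 at 0.38 and 0.83, and only the B6C3F1 points of these genes are filled.

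Markers of other liver cells were read beside these results. Of 12 endothelial markers, 12 had a log2 fold change above 0 in C57BL/6J and 9 in B6C3F1, with none called and medians of 0.12 and 0.03. Their summed level ranged from 871 to 930 CPM in vehicle and from 909 to 1009 CPM in PB-treated C57BL/6J mice, and from 816 to 888 and 814 to 904 CPM in B6C3F1. Of 12 stellate cell markers, 3 and 1 were above 0, none was called, and the sums ran from 610 to 748 CPM and 519 to 643 CPM in C57BL/6J and from 584 to 771 and 507 to 650 CPM in B6C3F1. The stellate medians were −0.20 in C57BL/6J and −0.21 in B6C3F1. None of 8 Kupffer cell markers was called with PB, and their sums overlapped between PB and vehicle in both strains. An unadjusted limma p under 0.05 with PB was reached by 5 stellate markers in C57BL/6J and 6 in B6C3F1. For endothelial markers it was 4 and 0, and for Kupffer cell markers 0 and 0, beside 12.4% and 23.4% of all genes. Under vehicle, where Tgfbr2 was lower in B6C3F1, the Kupffer sums were also lower there (199 to 256 CPM) than in C57BL/6J (261 to 375 CPM). In that strain comparison 0 of 8 Kupffer and 2 of 12 endothelial markers were above 0, and none was called. All 6 hepatocyte markers were above 0, with none called. Of 12 stellate cell markers 4 were above 0 and 1 was called higher. Of 6 perivenous hepatocyte markers 0 were above 0 and 2 were called lower. Of 5 periportal hepatocyte markers 1 was above 0 and 1 was called lower. Of all genes, 3.63% were called in either direction. With PB, 1 of 6 perivenous markers was above 0 in C57BL/6J and 2 in B6C3F1 (medians −0.22 and −0.34). An unadjusted limma p under 0.05 was reached by 0 and 3 of them. Of 5 periportal markers 3 were above 0 in each strain (medians 0.01 and 0.08), with 0 and 2 under 0.05. Of 5 measured cholangiocyte markers 4 and 2 were above 0. None of these 3 lists had a call with PB. The sums of 6 hepatocyte markers in B6C3F1 were 75523 to 80369 CPM under vehicle and 57328 to 72922 CPM under PB, without overlap, although 3 of the 6 were above 0 and none was called. In C57BL/6J they were 59097 to 75488 CPM and 56710 to 65243 CPM, which overlapped. Over all mice Alb alone ran from 43622 to 65669 CPM, and Ttr, the next highest, from 4324 to 6536 CPM. The hepatocyte sums are therefore mainly Alb. The part of these cell types in the Tgfbr2 and Ldlrad4 values was not tested.

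Levels between genes were compared per kilobase of merged exon. Over the 18 mice the order ran from Tgfbr1 at 10.8 ± 0.614 CPM per kb (SD), through Tgfbr2 at 7.68 ± 1.86, Smad4 at 5.72 ± 0.355, Smad3 at 5.04 ± 0.497, Smad2 at 4.85 ± 0.283, Ldlrad4 at 4.17 ± 1.15, Tgfbr3 at 3.18 ± 0.271 and Smad7 at 3.03 ± 0.572, to Tgfb1 at 1.15 ± 0.296 and Bambi at 0.575 ± 0.109. Smad3 and Smad2, Smad2 and Ldlrad4, Ldlrad4 and Tgfbr3, and Tgfbr3 and Smad7 were neighbours that differed by less than the larger of their SDs. Tgfbr2 moved within the order by group, from 5.00 CPM per kb in vehicle B6C3F1, below Smad4 at 5.84, to 9.81 in PB-treated C57BL/6J livers, between Tgfbr1 at 11.1 and Smad4 at 5.74. Ldlrad4 moved from 3.00 in vehicle B6C3F1, below Tgfbr3 at 3.22 and Smad7 at 3.14, to 5.38 in PB-treated B6C3F1 livers, above Smad3 at 5.09 and Smad2 at 4.74.

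**Figure D3:**
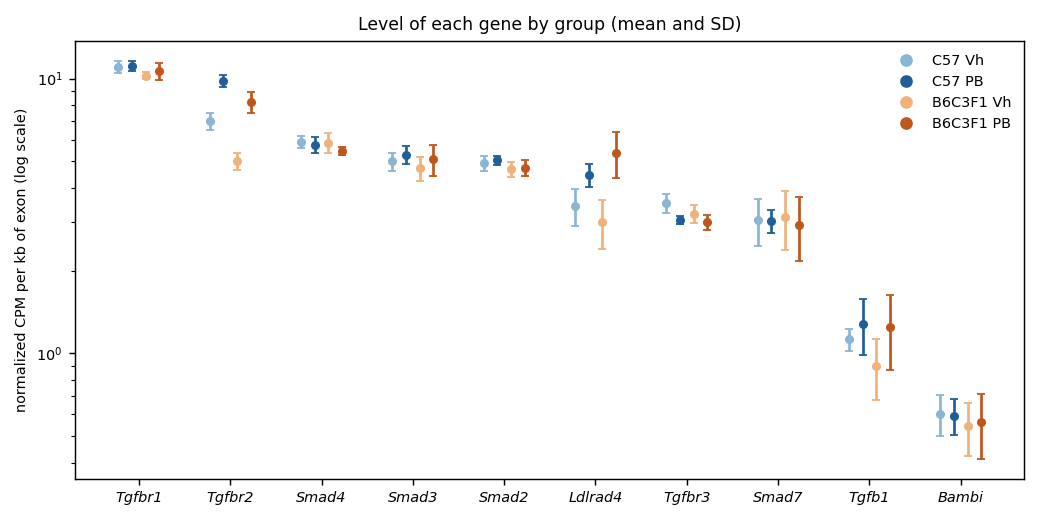
Normalized CPM per kb of merged exon (y axis, log scale) of the 10 genes ordered by their mean (x axis), as mean and SD of each group of 4 or 5 mice. Tgfbr1 is highest at 10.3 to 11.1 in all 4 groups, and Tgfbr2 spans 5.00 to 9.81 between groups.

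The 5 other genes whose log2 CPM followed Tgfbr2 most closely over the 18 mice were Fez2 (Pearson r = 0.977), Slc23a2 (0.952), Pld1 (0.945), Dock8 (0.938) and Acp2 (0.937). They are named as a description of likeness, since the 18 points share their libraries and the 4 groups. Once the group means had been removed, r was 0.612, 0.362, 0.647, 0.503 and 0.286. Fez2 averaged 29.8 and 39.8 CPM in vehicle and PB-treated C57BL/6J livers and 20.4 and 34.1 CPM in B6C3F1 livers.

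The rest of the superfamily was read from 8 lists of 94 further genes, of which 82 were measured. None was called with PB in C57BL/6J, beside 0.874% of all genes, where 8 had an unadjusted limma p under 0.05 (12.4% of all genes) and edgeR called 0. In B6C3F1, 1 was called, higher, beside 2% of all genes, and 19 had an unadjusted p under 0.05 (23.4% of all genes). The median log2 fold change of the 82 was −0.02 in C57BL/6J and −0.07 in B6C3F1. No gene was called in the strain difference of the PB response, where 5 had an unadjusted p under 0.05 (7.9%) and edgeR called 0. Between the strains, 1 was called lower under vehicle, beside 3.63% of all genes (Acvr1b, the activin type I receptor, log2 difference −0.61 ± 0.13, limma adjusted p = 0.00172). Under PB, beside 5.25% of all genes, 1 was called higher (Inhba, which encodes an activin subunit, 1.11 ± 0.22) and 1 lower (Acvr2b, an activin type II receptor, −0.63 ± 0.13). These 3 were named after their values were seen. With 1 mouse left out, the pathway genes called ranged from 0 to 2 under vehicle (0 without C57BL/6J or B6C3F1 vehicle mouse 5, 2 without B6C3F1 vehicle mouse 1) and from 1 to 3 under PB (1 without PB-treated C57BL/6J mouse 1).

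The called gene was Gdf15, a stress-induced distant relative of TGF-beta. Vehicle B6C3F1 mice measured 1.05, 1.18, 2.68 and 2.72 CPM and PB-treated mice 9.44, 3.41, 7.70, 6.39 and 4.18 CPM, without overlap (log2 fold change 1.68 ± 0.35, limma adjusted p = 0.00491). In C57BL/6J, 3.00, 3.30, 3.30 and 2.03 CPM under vehicle also lay below 5.19, 8.01, 3.70, 3.82 and 7.02 CPM under PB (0.87 ± 0.35, limma adjusted p = 0.283). The count of called pathway genes in B6C3F1 was 0 when vehicle mouse 2 or PB mouse 1, 3 or 4 was left out.

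By list, among 14 activin and BMP ligands and antagonists Gdf15 was the 1 call in B6C3F1, and Inhbc, a hepatocyte-made activin subunit, had a log2 fold change of −0.37 ± 0.08 (limma adjusted p = 0.00495) below the minimum size. None of 12 TGF-beta ligands and latent complex genes, Tgfb1 among them, was called, and Itgav, an integrin subunit that activates latent TGF-beta, had −0.15 ± 0.05 in B6C3F1 (limma adjusted p = 0.0617). None of 10 other receptors was called with PB, where the BMP coreceptor Rgmb had −0.43 ± 0.15 in B6C3F1 (limma adjusted p = 0.0859). Among the 4 other Smads, the BMP mediators Smad1 and Smad5 had 0.26 ± 0.06 (limma adjusted p = 0.0128) and −0.15 ± 0.05 (0.0796) in that strain.

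None of 19 regulators of receptors and Smads was called. Fkbp1a, which binds and holds the type I receptor inactive, had 0.30 ± 0.09 in B6C3F1 (limma adjusted p = 0.0321), and Ppm1a, a Smad phosphatase, −0.18 ± 0.06 (0.0479). None of 6 Smad partners and coactivators was called, and the acetyltransferase genes Crebbp and Ep300 had −0.12 ± 0.05 and −0.09 ± 0.05 in B6C3F1. None of 16 TGF-beta target genes, which include Smad7, was called in either strain, with median log2 fold changes of 0.01 in C57BL/6J and −0.11 in B6C3F1. Of these, Fn1, which encodes fibronectin, had −0.15 ± 0.05 in C57BL/6J (limma adjusted p = 0.137), and Cdkn2b, a cell cycle inhibitor, had 0.83 ± 0.31 (limma adjusted p = 0.21) at under 1 CPM in every mouse. None of 7 BMP targets, Smad7 again included, was called, where Hamp, the iron hormone hepcidin, had −0.77 ± 0.41 and −0.89 ± 0.41 and the inhibitory Smad6 had 0.08 ± 0.13 and −0.10 ± 0.13 in C57BL/6J and B6C3F1.

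Accessibility was measured as the normalized number of DNase reads in each DHS, and its log2 values are on the log2(count + 1) scale. The 155 DHSs comprised 37 of Ldlrad4, 24 of Smad3, 21 of Tgfbr2, 20 of Tgfbr3, 13 of Smad7, 12 each of Tgfbr1 and Bambi, 11 of Smad2, 3 of Tgfb1 and 2 of Smad4. None was called with PB in C57BL/6J, beside 0.367% of all DHSs, where edgeR called 0 and 13 higher and 9 lower had an unadjusted p under 0.05 (7.76% of all DHSs). In B6C3F1, 1 was called, higher, beside 0.19% of all DHSs in either direction and 0.169% upward, and 21 higher and 12 lower had an unadjusted p under 0.05 (9.16%). No DHS was called in the strain difference of the PB response (0% of all DHSs), where 8 higher and 4 lower had an unadjusted p under 0.05 (5.39%) and edgeR called 0. DHSs of 1 gene are not independent of each other. At the same cutoffs the study's own test called more DHSs in each strain than were called here (360 in C57BL/6J and 187 in B6C3F1). A site without a call here may therefore have been called there.

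At the TSS, the Tgfbr2 DHS (chr9:116175118-116175565, over the start and first exon) measured 249, 246, 274 and 258 normalized counts in vehicle and 310, 274, 326, 291 and 288 in PB-treated C57BL/6J mice. In B6C3F1 it measured 176, 226, 255 and 204 under vehicle and 298, 242, 233, 288 and 365 under PB. The mice overlapped in B6C3F1, and the log2 fold changes were 0.21 ± 0.11 (limma adjusted p = 0.68) and 0.40 ± 0.16 (0.448). The DHSs at the starts of Tgfbr1, Tgfb1, Smad2, Smad3, Bambi and Ldlrad4 had PB log2 fold changes between −0.15 and 0.32, the smallest adjusted p being 0.39. The Tgfbr3 start (chr5:107289283-107289803) had −0.42 ± 0.15 in C57BL/6J (limma adjusted p = 0.355) and −0.42 ± 0.18 in B6C3F1 (0.484). The DHSs over the starts of Smad4 (chr18:73703632-73704271) and Smad7 (chr18:75366525-75367593) were centred nearer to the start of another gene, 4930578L24Rik and Gm20544, and so were not among the 155. The Smad4 site had PB log2 fold changes of 0.10 ± 0.08 in C57BL/6J and −0.09 ± 0.09 in B6C3F1, the Smad7 site −0.05 ± 0.08 and −0.04 ± 0.08, with overlapping mice and no call.

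**Figure D4:**
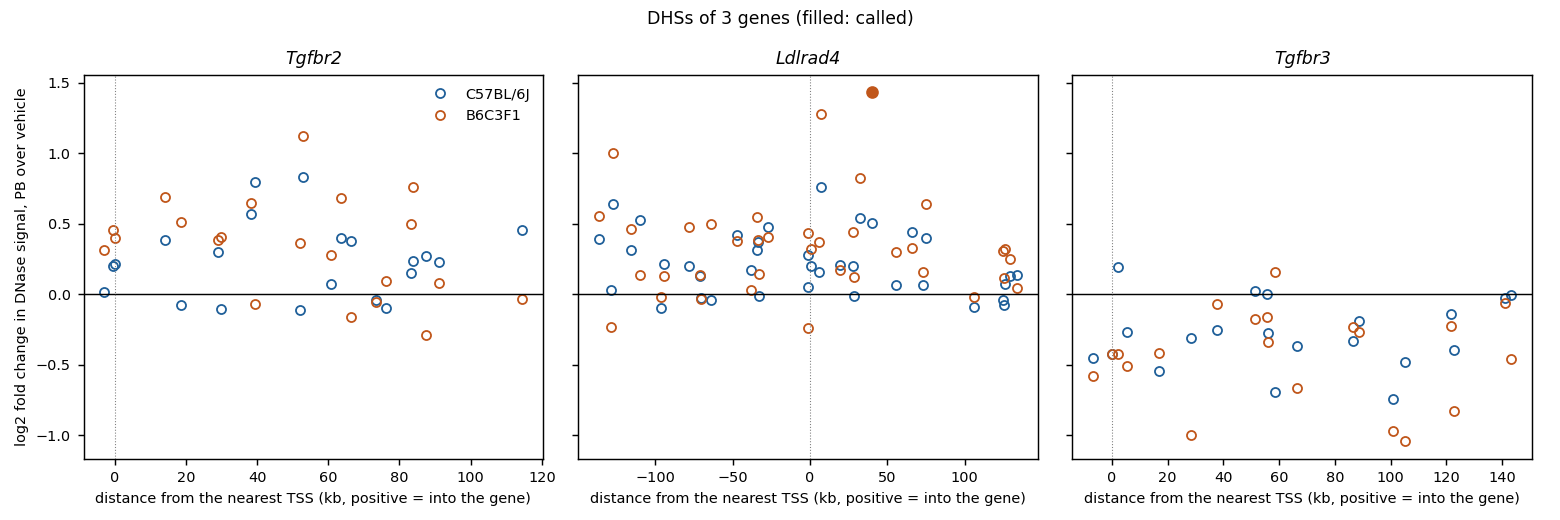
Log2 fold change in DNase signal, PB over vehicle (y axis), of each DHS of Tgfbr2, Ldlrad4 and Tgfbr3 against its distance in kb from the nearest TSS of the gene (x axis), in both strains; filled points were called. Most Tgfbr2 and Ldlrad4 points lie above 0 and most Tgfbr3 points below 0, and a single Ldlrad4 point in B6C3F1 is filled at 1.43.

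Across the 21 Tgfbr2 DHSs the log2 fold change was above 0 at 16 in each strain, with medians of 0.23 in C57BL/6J and 0.39 in B6C3F1, and 6 and 9 had an unadjusted p under 0.05, all higher. Of all DHSs, 49.5% and 47.4% were above 0. The DHS with the smallest p in B6C3F1 lay in a Tgfbr2 intron 63587 bp from the start (chr9:116111601-116111951), and its central sequence, with the 4 GGGTCA matches, is printed above. It measured 242, 221, 188 and 220 normalized counts under vehicle and 370, 309, 354, 327 and 388 under PB. In C57BL/6J it measured 297, 308, 305 and 292 under vehicle and 357, 437, 435, 351 and 410 under PB. PB and vehicle mice did not overlap in either strain, as for 3.15% of all DHSs in C57BL/6J and 3.53% in B6C3F1. Vehicle B6C3F1 mice lay below vehicle C57BL/6J mice, a separation seen at 27.8% of all DHSs. Like the other DHSs named for the smallest p, this site was chosen on these values. Its PB separation in B6C3F1 is therefore not independent of that choice.

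Its log2 fold changes were 0.68 ± 0.14 in B6C3F1 (limma adjusted p = 0.023) and 0.40 ± 0.10 in C57BL/6J (0.0958), so that it was not called in either. With all 4 groups in the fit, the adjusted p in B6C3F1 was 0.000835, and the site was called. The study, whose own test called more DHSs, lists Tgfbr2 among the B6C3F1 genes with concordant DHS and RNA effects. The Tgfbr2 DHS with the smallest p in C57BL/6J, 39316 bp from the start (chr9:116135923-116136171), measured 39.0, 32.7, 38.2 and 39.1 under vehicle and 59.3, 59.1, 68.3, 62.9 and 77.8 under PB (0.79 ± 0.19, limma adjusted p = 0.0564). In B6C3F1 the same site ranged from 15.8 to 40.6 under vehicle and from 11.9 to 44.3 under PB, which overlapped. Another intron DHS, named after its values were seen and 14055 bp from the start (chr9:116161090-116161527), was lower in B6C3F1 than in C57BL/6J under vehicle (log2 difference −1.41 ± 0.27, limma adjusted p = 0.0014) and PB (−1.11 ± 0.21, 0.00043).

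Tgfbr3 DHSs lay on the other side of 0. Of its 20, 17 in C57BL/6J and 19 in B6C3F1 had a log2 fold change below 0, with medians of −0.29 and −0.42, where 50.5% and 52.6% of all DHSs were below 0. An unadjusted p under 0.05 was reached by 9 and 8, all lower. In an intron 16946 bp from the start (chr5:107272227-107273140), vehicle C57BL/6J mice measured 1030, 1189, 1015 and 1134 normalized counts and PB-treated mice 809, 718, 725, 721 and 764. This DHS passed the FDR and stayed below the minimum size (log2 fold change −0.54 ± 0.08, limma adjusted p = 0.000309). With all 4 groups in the fit its adjusted p was 0.013, past the threshold. In B6C3F1 918, 886, 638 and 1034 under vehicle overlapped 709, 662, 612, 711 and 522 under PB (−0.42 ± 0.13, limma adjusted p = 0.225).

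The Tgfbr3 DHS with the smallest p in B6C3F1 lay 105226 bp from the start (chr5:107184184-107184622). It measured 165, 133, 159 and 153 normalized counts under vehicle and 87.0, 94.4, 71.4, 50.7 and 70.8 under PB in that strain (−1.04 ± 0.21, limma adjusted p = 0.0202). In C57BL/6J it measured 259, 315, 269 and 252 under vehicle and 173, 207, 183, 196 and 222 under PB (−0.48 ± 0.12, limma adjusted p = 0.0791). PB and vehicle mice did not overlap in either strain, and neither difference was called. With all 4 groups in the fit it was called in B6C3F1 (adjusted p = 0.000278). It was lower in B6C3F1 than in C57BL/6J under vehicle (log2 difference −0.84 ± 0.14, limma adjusted p = 0.000607) and PB (−1.40 ± 0.18, 3.92e-06).

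Across the 37 DHSs of Ldlrad4 the log2 fold change was above 0 at 29 in C57BL/6J and 32 in B6C3F1, with medians of 0.20 and 0.32, and 6 and 10 had an unadjusted p under 0.05, all higher. The 1 DHS called with PB, d45107, lay in an intron 40280 bp from the start (chr18:67973298-67973608). In B6C3F1 it measured 45.4, 28.1, 33.2 and 55.4 normalized counts under vehicle and 128, 129, 82.5, 85.4 and 124 under PB. In C57BL/6J it measured 11.9, 12.1, 18.3 and 15.9 under vehicle and 15.9, 28.6, 29.9, 19.6 and 14.3 under PB. PB and vehicle mice were apart in B6C3F1 and overlapped in C57BL/6J.

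The site rose 2.71-fold in the B6C3F1 means (log2 fold change 1.43 ± 0.25, limma adjusted p = 0.00826), against 0.51 ± 0.33 in C57BL/6J (0.805). The difference between these responses did not pass (0.93 ± 0.40, limma adjusted p = 0.907). It was also higher in B6C3F1 than in C57BL/6J under PB (2.32 ± 0.25, limma adjusted p = 4.02e-07) and under vehicle (1.39 ± 0.36, 0.0096). The vehicle call was lost with a pseudocount of 0.1 (adjusted p = 0.0104), with median centring (0.0121) and with the replicate block (0.0223), and the adjusted p ran from 0.00533 to 0.0358 with 1 mouse left out. The PB call was lost in 8 of the 9 fits that left out 1 B6C3F1 mouse (adjusted p from 0.00694 to 0.0394), and was kept only without vehicle mouse 5.

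Another Ldlrad4 intron DHS, d45135, had the smallest p in C57BL/6J and lay 7276 bp from an internal start (chr18:68235040-68235405). In that strain it measured 45.5, 58.4, 68.0 and 61.1 normalized counts under vehicle and 101, 78.8, 98.2, 97.2 and 122 under PB, without overlap (0.76 ± 0.18, limma adjusted p = 0.0445). In B6C3F1, 25.3, 40.4, 25.8 and 70.3 under vehicle overlapped 63.4, 111, 113, 71.5 and 112 under PB (1.28 ± 0.30, limma adjusted p = 0.0627), and with all 4 groups in the fit it was called (adjusted p = 0.00429).

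**Figure D5:**
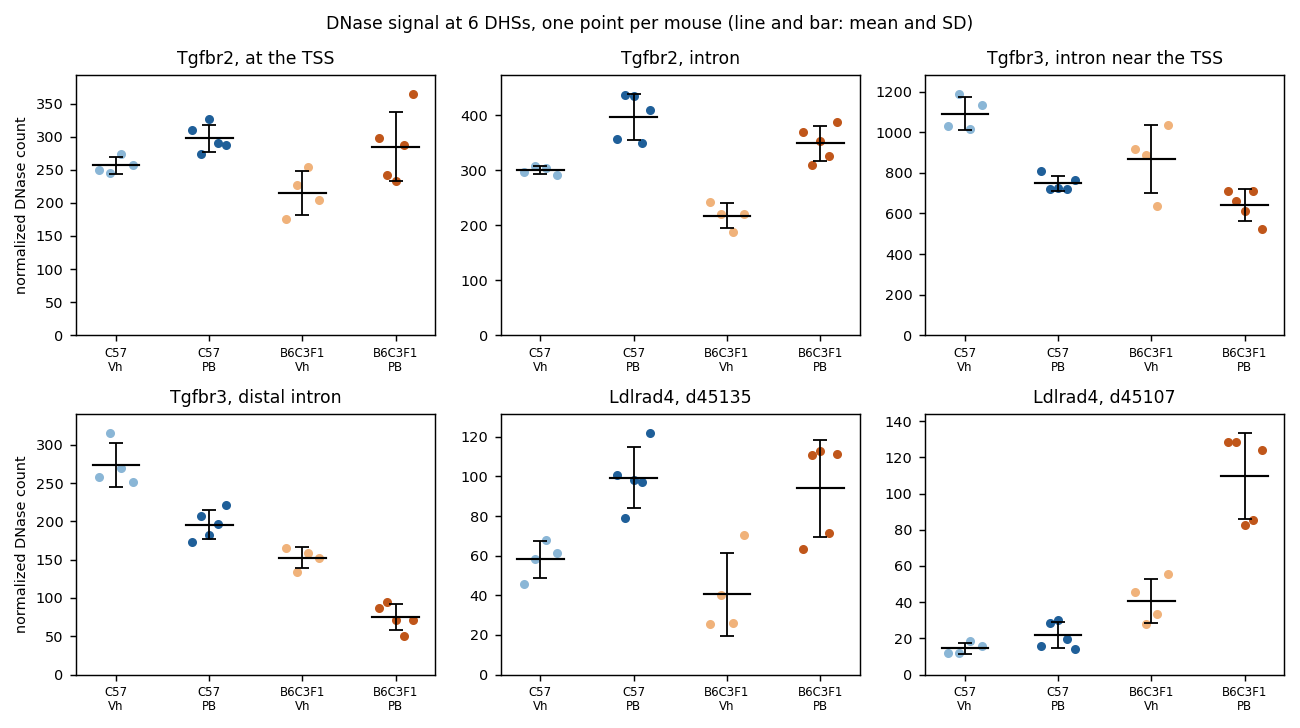
Normalized DNase count (y axis, from 0) at 6 DHSs of Tgfbr2, Tgfbr3 and Ldlrad4 in the 4 groups (x axis; Vh, vehicle), with 1 point per mouse and the mean and SD as line and bar. The Tgfbr2 intron DHS is higher and the distal Tgfbr3 intron DHS lower in every PB mouse than in any vehicle mouse of its strain, and d45107 of Ldlrad4 is at 82.5 to 129 in PB-treated B6C3F1 mice and under 60 in all other groups.

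The remaining members gave no DHS called with PB. The smallest adjusted p of their DHSs in a PB comparison was 0.296 (Tgfbr1), 0.357 (Bambi), 0.517 (Smad3), 0.537 (Smad2), 0.543 (Smad7), 0.812 (Smad4) and 0.881 (Tgfb1). For Tgfbr1 this was an intergenic site 31474 bp beyond a start (chr4:47417598-47417782), at 32.7, 40.4, 48.0 and 33.8 normalized counts under vehicle and 11.8, 27.4, 14.3, 20.9 and 19.5 under PB in B6C3F1.

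Between the strains, 13 of the 155 DHSs were called under vehicle (5 higher and 8 lower in B6C3F1), beside 10.5% of all DHSs (6.14% higher and 4.34% lower), and 16 under PB (3 higher and 13 lower), beside 9.72% (3.54% higher and 6.19% lower). Of the 13, 5 were DHSs of Ldlrad4 and 3 of Tgfbr3, and of the 16, 5 were of Tgfbr3 and 4 of Ldlrad4. These comparisons share no mice with each other but carry the differences of age, supplier, study and DNase depth, and under PB also of PB source. Tgfbr1, Tgfb1, Smad4 and Smad7 had no DHS called between the strains in either condition.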

How the data were processed

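Per the labels and the study's methods, the authors sequenced stranded, rRNA-depleted liver RNA, aligned reads to mm10 with STAR 2.4.0f1, counted uniquely mapped reads on RefSeq genes and deposited TMM-scaled CPM (edgeR 3.12.1). DNase reads were trimmed with cutadapt 1.8 and aligned with Bowtie2 2.1.0, and peaks were called with MACS2 2.1.1.20160309 and counted with DiffBind 1.16.3 in sites found in several samples. Both tables hold a normalized signal as the authors deposited it, not raw counts. Here, R 4.3.3 with limma 3.58.1 (trended, robust) was applied to log2(CPM + 0.1), for genes with at least 0.4 CPM in 3 samples of a group, with all 18 mice in the fit. For 98170 DHSs it was applied to log2(normalized count + 1), with the groups compared. Calls needed an absolute log2 fold change of 0.58 and a Benjamini-Hochberg FDR of at most 0.01. In both tables every value was a whole number of reads once rescaled (within 0.01), and edgeR 4.0.16 (quasi-likelihood) on these reads was an alternative. DHSs were given to the nearest RefSeq TSS of GRCm38.p6, and no gene overlapped a member. Bambi has a near-identical pseudogene copy, so its count is uncertain.

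The members and lists were chosen with earlier results of these data known. Named were all members, 2 PB-induced genes, each list's called genes or otherwise the 2 with the smallest FDR, the 5 genes most like Tgfbr2, and for each member the DHS nearest its start, those called with PB and the one with the smallest p in each PB comparison. In simulated data the fits recovered 64 and 67 of 100 genes changed 2-fold in C57BL/6J and B6C3F1, and 42 and 33 of 100 DHSs. Changes of 4-fold were recovered for 100 and 100 genes and for 100 and 97 DHSs. Every simulated feature had a dispersion of 0.05, a setting not taken from these data. The median SE of the log2 fold change over all genes was 0.10 in each RNA PB comparison. Recovery in these data can therefore differ from the simulated shares. Alternatives changed the pseudocount, filter, centring, thresholds, samples fitted, replicate block and each mouse left out. The lymphocyte marker list is not reported here.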

Additional observations from a re-analysis of the deposited data

Results flagged for a closer look

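In 4 of 136 groups of 4 or 5 mice, 1 mouse stood apart from the rest by Dixon's criterion, where chance gives about 1 in 20. Tgfbr2 RNA in PB-treated B6C3F1 mouse 3 was 45.4 CPM, the others lying between 36.5 and 39.0 CPM. Smad3 RNA in vehicle B6C3F1 mouse 5 was 20.4 CPM, the others lying between 24.9 and 25.4 CPM. The Tgfbr2 intron DHS 39316 bp from the start was at 32.7 normalized counts in vehicle C57BL/6J mouse 2, against 38.2 to 39.1 in the others. The Smad7 intron DHS 2597 bp from the start was at 219.6 normalized counts in PB-treated B6C3F1 mouse 1, against 165.9 to 180.6 in the others. Without any one mouse the Tgfbr2 log2 fold change in B6C3F1 stayed between 0.66 and 0.76.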

How the results depend on the processing

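Of 204 counts of called members under alternatives, 181 stayed within 1.5 times the reported count. These include every case in which a reported count of 0 stayed 0. Without a minimum fold change, RNA calls became 1 with PB in C57BL/6J and 1 between strains under vehicle and under PB (0 otherwise), and with only the strain's mice fitted the B6C3F1 PB calls fell to 1 from 2. For DNase with PB in C57BL/6J there was 1 call at an FDR of 0.05 and 1 without a minimum fold change. With PB in B6C3F1 the 1 called DHS became 7 with all 4 groups fitted, 6 at an FDR of 0.05 and 0 to 1 with 1 mouse left out. Between strains under vehicle the 13 calls became 23 at an FDR of 0.05 and 5 to 14 with 1 mouse left out, being 5 without C57BL/6J vehicle mouse 1 or 2 and 7 without mouse 3 or 5. Under PB the 16 calls became 10 to 18, with 10 without PB-treated B6C3F1 mouse 4. Over all DHSs, the 187 called with PB in B6C3F1 became 630 with all groups fitted, 496 at an FDR of 0.05 and 59 to 306 with 1 mouse left out. The 360 called in C57BL/6J became 156 and 593 under the first 2 of these, and at an FDR of 0.05 the strain counts rose from 10281 to 18323 under vehicle and from 9547 to 15316 under PB, while the vehicle count fell to 5120 without C57BL/6J vehicle mouse 1 and to 4980 without mouse 2. Over all genes, dropping the minimum fold change gave 221 in place of 121 with PB in C57BL/6J, 617 in place of 277 in B6C3F1 (181 with only that strain fitted), 1364 in place of 503 between strains under vehicle (803 at an FDR of 0.05) and 2191 in place of 727 under PB. The strain difference in the PB response gave 3 genes with a pseudocount of 0.5 or 1 and 4 at an FDR of 0.05, none otherwise with all mice in the fit. The cause was not tested.

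Replicate numbers did not pair the mice (correlations of same-numbered mice −0.20 to 0.24, and 1 or 0 of 4 in each strain and assay was closest to its own number). With the replicate block, member calls in RNA were 0 and 2 with PB and 0 in the other comparisons. For DNase they were 0 with PB in each strain, 9 between strains under vehicle, 16 under PB and 0 in the strain difference, and 58 DHSs in all were called with PB in B6C3F1. Of 3362 values under alternatives, 128 changed sign, none of them called, the largest being 0.19 in size on the log2 scale.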
